A study of Homo sapiens with 16 samples.

Results

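Translational efficiency at rest was measured in untreated HEK293T cells, a human line from embryonic kidney transformed with SV40 large T antigen. Ribosome-protected fragments (RPFs, Ribo-Seq) were set against mRNA (mRNA-Seq) in the 4 untreated libraries of the 16 in the series, replicates a and b of each assay. The other 12 libraries came from cells given 1 µg/ml tunicamycin (Tm), Tm with 200 nM ISRIB, or 200 nM ISRIB alone for 1 hr, and were used here only as a second reading of the same transcripts. The study describes the replicates of a condition as biological replicates. The labels do not say how they were separated, and p-values measure the spread between these samples.

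Transcripts were joined between the assays by identifier and counted coding length, which left 19044. Of these, 10775 had at least 10 counts in each of the 4 untreated libraries and were tested, and 8269 did not. Symbols came from the study's own lists and were known for 1870 of the tested transcripts. Of the 1768 of these that could be placed, 1735 lay on chromosomes 1 to 3, so each gene list below holds only part of its group. Efficiency was the log2 ratio of RPF to mRNA counts, each scaled to library size (CPM). The ratio is relative: 0 is the level of a typical transcript in these libraries, 1 is 2-fold above it and -1 is 2-fold below it.

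An mRNA is translated by ribosomes that load at its 5′ end, scan to a start codon and read the coding sequence (CDS). Nuclease digestion leaves the stretch covered by each ribosome, so RPFs count ribosomes on a message while mRNA-Seq counts the message. AUG codons upstream of the CDS can capture scanning ribosomes, and the mRNAs of several stress response factors are known to be held at low translation in this way until eIF2α is phosphorylated. Long coding sequences, terminal pyrimidine tracts and the bases around the start codon are other features through which messages are known to differ.

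The joined counts were 7966904 and 11469150 RPFs and 11724251 and 10777823 mRNA reads in replicates a and b. The libraries of an assay resembled each other, with a common biological coefficient of variation of 6%. Of 6 genes expected in HEK293T cells, 5 (HOXD8, HOXD9, HOXD10, HOXD11 and HOXD13) passed the count filter. NES had 4 and 22 RPFs on 57 and 42 mRNA reads and did not. Of 11 leukocyte or muscle genes, 5 were joined. The leukocyte gene CD101 had 0 and 2 RPFs on 73 and 79 mRNA reads, and the muscle genes ACTA1, ACTN2 and RYR2 passed the filter.

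Efficiency at rest differed widely between mRNAs. The standard deviation of efficiency was 1.25 on the log2 scale over the 10775 transcripts, and the 5th and 95th percentiles were -1.93 and 2.08, a 16.1-fold range. The middle of the distribution was narrow: the quartiles were -0.74 and 0.74, and 6767 transcripts (62.8%) lay within 2-fold of 0. Beyond 4-fold lay 574 transcripts on the high side and 483 on the low side. The mRNA level itself, as CPM per 1000 codons, varied more, with a standard deviation of 2.17 on the log2 scale, and that of RPFs per 1000 codons was 2.33.

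The replicates differed far less than the transcripts did. The difference between replicates b and a had a standard deviation of 0.31, and efficiency in a and b had a Pearson r of 0.97 and a Spearman rho of 0.96 over the 10775 transcripts. This is a description across transcripts, which share their libraries. In 111 transcripts the replicates were more than 2-fold apart. Of these, 8 were among the 8822 transcripts with at least 50 counts in every library. The replicates lay further apart at low counts. The standard deviation of b minus a was 0.52 for the 1953 transcripts whose lowest count was under 50 and 0.17 for the 1328 with at least 1000. The spread of efficiency itself narrowed from 1.84 to 0.80 between the same groups.

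Extremes found in one pair of libraries were seen again in the other. The 540 transcripts with the highest efficiency in replicate a had a median of 2.60 in a and 2.66 in b, and 539 of them were more than 2-fold high in b. The 539 lowest in a had medians of -2.36 and -2.42, and 537 were more than 2-fold low in b.

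RPF and mRNA counts were compared by the quasi-likelihood test of edgeR, with p-values adjusted after Benjamini and Hochberg. At a false discovery rate (FDR) under 0.1, 8894 of 10775 transcripts (82.5%) departed from 0. With a departure of more than 2-fold in addition, 2026 transcripts (18.8%) were called high and 1985 (18.4%) were called low. By FDR alone, 4449 (41.3%) lay above 0 and 4445 (41.3%) below. These shares are the background for the gene groups below. Transcripts with a symbol leaned low: 245 of 1870 (13.1%) were called high and 444 (23.7%) low, with a median of -0.21. By FDR alone, 655 of these 1870 lay above 0 and 927 below. The gene groups hold only transcripts with a symbol, so these shares are a background for them as well.

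**Figure D1:**
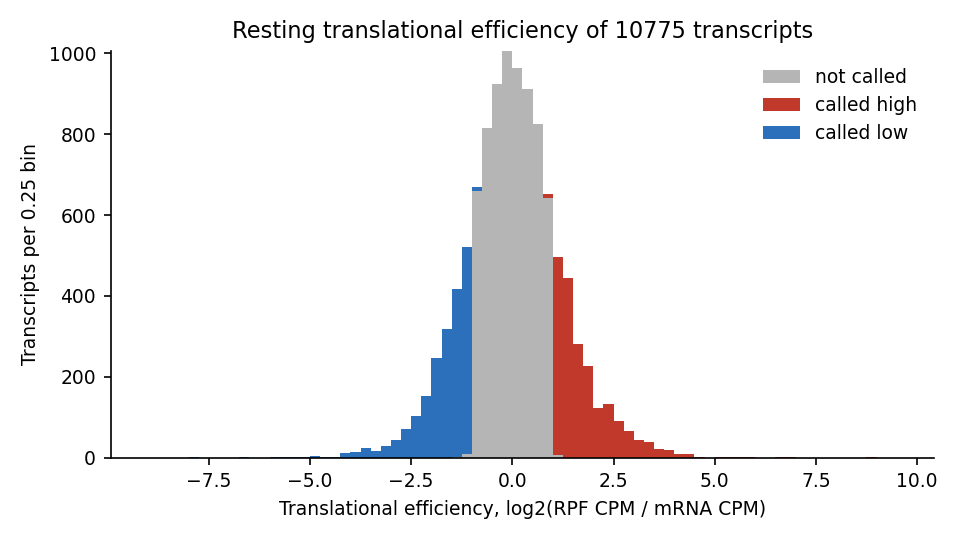
Number of transcripts (y axis) per 0.25 bin of resting translational efficiency, log2 of RPF CPM over mRNA CPM, mean of replicates a and b (x axis). Red marks the 2026 transcripts called high and blue the 1985 called low; the middle holds the 6767 within 2-fold of 0.

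Among the highest efficiencies outside the families of near-identical genes listed here were an actin and several proteins of under 100 counted codons. ACTA1, skeletal muscle actin, had 1581 and 2347 RPFs on 131 and 86 mRNA reads, an efficiency of 4.15 in a and 4.71 in b. It shares most of its sequence with the cytoplasmic actins, and how shared reads were assigned is not given in the sources used here. GNG5, a G protein gamma subunit of 49 counted codons, had 1074 and 1299 RPFs on 110 and 74 mRNA reads, and 3.85 and 4.07. In both genes each RPF library lay far above each mRNA library. The fitted efficiencies were 4.40 ± 0.12 (SE; adjusted p = 6.2e-20, edgeR) and 3.93 ± 0.13 (adjusted p = 1.8e-18, edgeR).

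QPCT, which forms pyroglutamate at protein N-termini, stood at 3.58 and 3.64 in a and b. TMSB10, an actin-binding thymosin of which 25 codons were counted, stood at 3.15 and 3.57. S100A10, a small calcium-binding family protein, stood at 3.32 and 3.30. S100A11 of the same family was at 4.76 and 4.32, on only 43 and 44 mRNA reads. The others named by the rule were MYEOV2 (3.40 in both), ITM2C (2.92 and 3.17) and PCBP1, an RNA-binding protein (2.84 and 3.02).

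SAT1, which acetylates polyamines for export and breakdown, SERPINE2, a protease inhibitor, and the transcription regulators DLX2 and ID2 followed, with fitted values from 2.58 to 2.79. DLX2 and ID2 were less even: DLX2 was 2.23 in a and 3.04 in b, and ID2 was 2.29 and 2.94. These 4 were reached only after near-identical families were set aside, a step chosen after the values were seen.

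Of the 12 lowest transcripts outside such families, 10 had from 809 to 4580 counted codons, and the other two were ATF4 (332) and TMEM183A (357). ATP8B2, a phospholipid flippase, had 94 and 132 RPFs on 1713 and 1515 mRNA reads, an efficiency of -3.63 in a and -3.58 in b. LRP1B, a very large lipoprotein receptor-related protein, had 58 and 97 RPFs on 1083 and 1085 mRNA reads, and -3.66 and -3.55. ATF4, the transcription factor of the integrated stress response, was the most deeply counted of the low group, with 653 and 689 RPFs on 8940 and 8940 mRNA reads, and -3.22 and -3.76. Its fitted efficiency was -3.49 ± 0.11 (SE; adjusted p = 5.2e-19, edgeR), 11.2-fold below a typical transcript.

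PTPN4, a tyrosine phosphatase, was at -3.05 and -3.59. CPS1, the first enzyme of the urea cycle, was at -3.34 and -3.29. VPS54, of the complex that tethers vesicles to the trans-Golgi network, was at -2.98 and -3.32, MYSM1, a histone deubiquitinase, at -3.18 and -3.13, and ZZZ3 at -3.11 and -3.23. NKTR, PKD1, CEP350 and TMEM183A, reached after families were set aside, had fitted values between -3.04 and -2.94. PKD1, polycystin 1, was the least even of these (-2.59 and -3.43). At lower counts, PCNXL2 had 25 and 22 RPFs on 1305 and 1122 mRNA reads, and 1 transcript known only by a cDNA identifier had 28 and 17 RPFs on 6464 and 5846 mRNA reads, the lowest efficiency measured at -7.29 and -8.49.

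**Figure D2:**
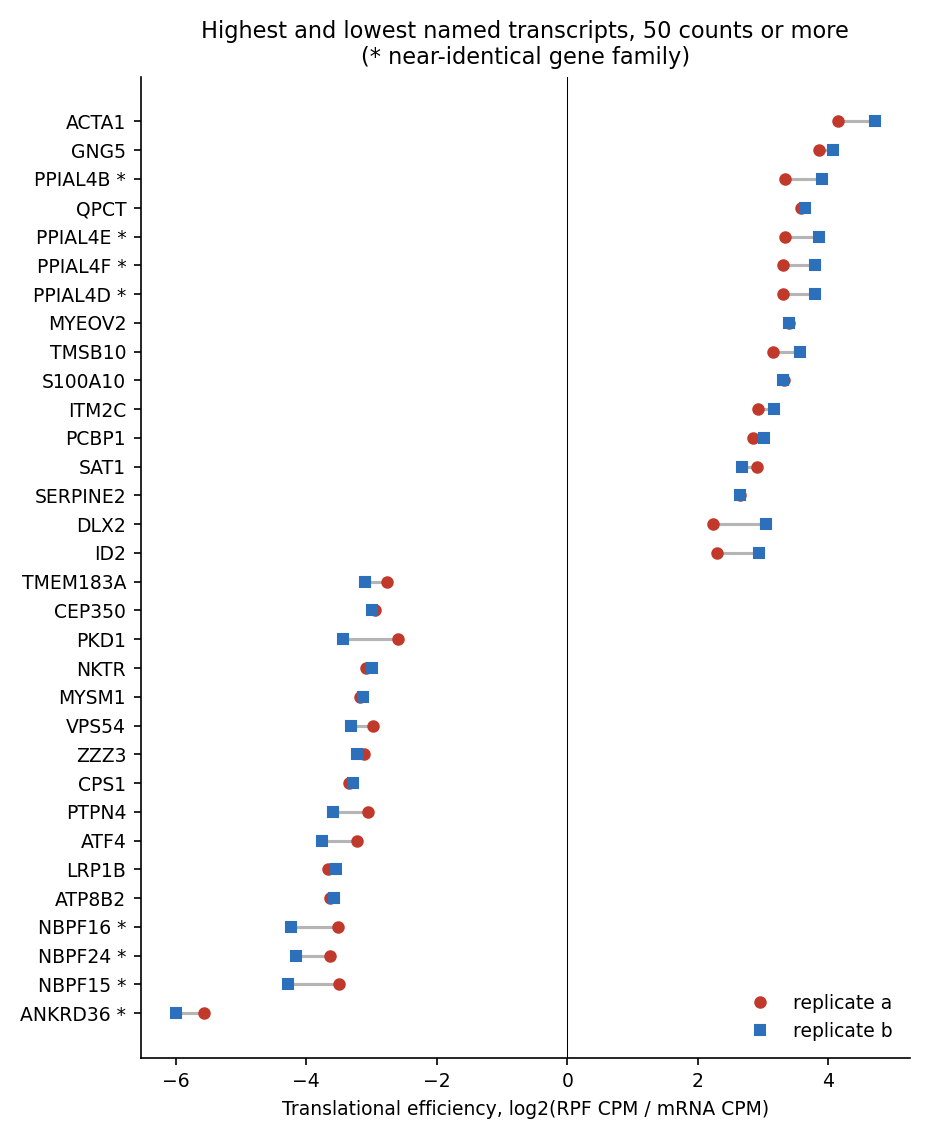
Translational efficiency, log2 of RPF CPM over mRNA CPM (x axis), of the highest and lowest named transcripts with at least 50 counts in every library (y axis), with replicate a as circles and replicate b as squares. In every row both replicates lie on one side of 0; ATF4 sits at -3.22 and -3.76 and ACTA1 at 4.15 and 4.71.

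Families whose members share most of their sequence were at both ends. Of 31 such transcripts tested, 9 were called high and 14 low (background 18.8% and 18.4%), or 6 and 14 of 27 when transcripts with the same 4 counts were taken once. POTEF, which carries an actin domain, had 3267 and 4493 RPFs on 38 and 36 mRNA reads and was the highest named transcript at 6.99 and 6.90. Its relative POTEE had nearly as many RPFs, 3356 and 4808, on 961 and 1123 mRNA reads, and stood at 2.36 and 2.04. The PPIAL4 genes, relatives of cyclophilin A, had fitted values from 2.62 to 3.57, and PPIAL4D and PPIAL4F had the same counts in all 4 libraries.

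At the other end, ANKRD36 had 70 and 77 RPFs on 4886 and 4703 mRNA reads (-5.57 and -6.00), and ANKRD36B was at -5.77 and -5.63. NBPF15, NBPF16 and NBPF24 lay between -3.90 and -3.87 (fitted values), and GOLGA8A and GOLGA8B at -4.13 and -4.12. How reads that fit several genes were assigned in each assay is not given in the sources used here, and its part in these values was not tested. Processed pseudogenes were also annotated for some of the extremes named above, 4 each after GNG5 and ATF4, 3 after PKD1, 2 each after TMSB10 and S100A11 and 1 after TMEM183A, and their part was not tested.

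The bases around the start codon are shown for the 4 highest and 4 lowest named transcripts with at least 50 counts outside these families whose matched annotation holds at least 9 bases before the start codon, to set the extremes side by side. Each line runs 5′ to 3′ from 9 bases before the start codon to 3 bases after it, with the start codon in capitals. Sequences and positions are from GENCODE 29 on GRCh38, not the build of the counts (hg19), and the interval is that of the start codon.
ACTA1, high, chr1:229433113-229433115, minus strand: ctagacacaATGtgc
GNG5, high, chr1:84506089-84506091, minus strand: gcgtgcaccATGtct
QPCT, high, chr2:37344732-37344734, plus strand: ctcggagagATGgca
TMSB10, high, chr2:84906018-84906020, plus strand: tttaagaaaATGgca
CPS1, low, chr2:210556734-210556736, plus strand: atcatcaaaATGacg
PTPN4, low, chr2:119809854-119809856, plus strand: tggacagtaATGacc
ATF4, low, chr22:39521446-39521448, plus strand: caccgcaacATGacc
LRP1B, low, chr2:142130727-142130729, minus strand: gcgaccacaATGtcc

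All 8 have a purine 3 bases before the start codon, the position known to matter most for start site choice, so these 8 were not separated by it. Over all matched named transcripts, 1485 of 1724 had a purine there. Their median efficiency was -0.17, against -0.37 for the 239 without. The base differed in the order G (-0.09), A (-0.23), T (-0.30) and C (-0.45). With G directly after the start codon the median was -0.18 in 929 transcripts, against -0.23 in 795 without it. The 798 transcripts with both features had a median of -0.12 and the 108 with neither -0.28. Each of these differences was small beside the quartiles of the classes, which for purine were -0.88 and 0.54.

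Upstream AUGs went with lower efficiency. The 5′ UTR of 1768 tested and named transcripts could be matched to GENCODE by symbol and coding length, and an ATG on the mRNA strand upstream of the CDS was found in 884 of them. The median efficiency was -0.01 with no upstream AUG, -0.22 with 1, -0.51 with 2, -0.55 with 3, -0.39 with 4 and -0.55 with 5 or more. The median was lower with 1 than with none and lower again with 2, and lay between -0.39 and -0.55 beyond that. The share called low was 16.7% with none, 23.3%, 28.9%, 33.9% and 34.2% with 1 to 4, and 41% with 5 or more, against 18.4% over all transcripts. The share called high was 15.5% with none and 11.5% with 5 or more. Across transcripts the Spearman rho of efficiency with the number of upstream AUGs was -0.20 (n = 1768).

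The medians were ordered alike among messages of like coding length and like 5′ UTR length. In 3 equal classes by CDS length, the medians without and with an upstream AUG were 0.43 and 0.14 in the shortest, -0.01 and -0.47 in the middle and -0.62 and -0.78 in the longest. In the longest of 4 equal classes by 5′ UTR length they were 0.29 for 60 transcripts and -0.40 for 382. The length of the 5′ UTR alone showed little, with a rho of -0.05. Where an upstream reading frame ran into the CDS in another frame, the median was -0.53 in 248 transcripts. It was -0.37 in the 636 with upstream AUGs but no such overlap. Upstream AUGs in frame with the CDS and with no stop codon before it were not counted as overlapping. The 5′ UTRs are annotated ones, and which start site HEK293T cells use was not measured.

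**Figure D3:**
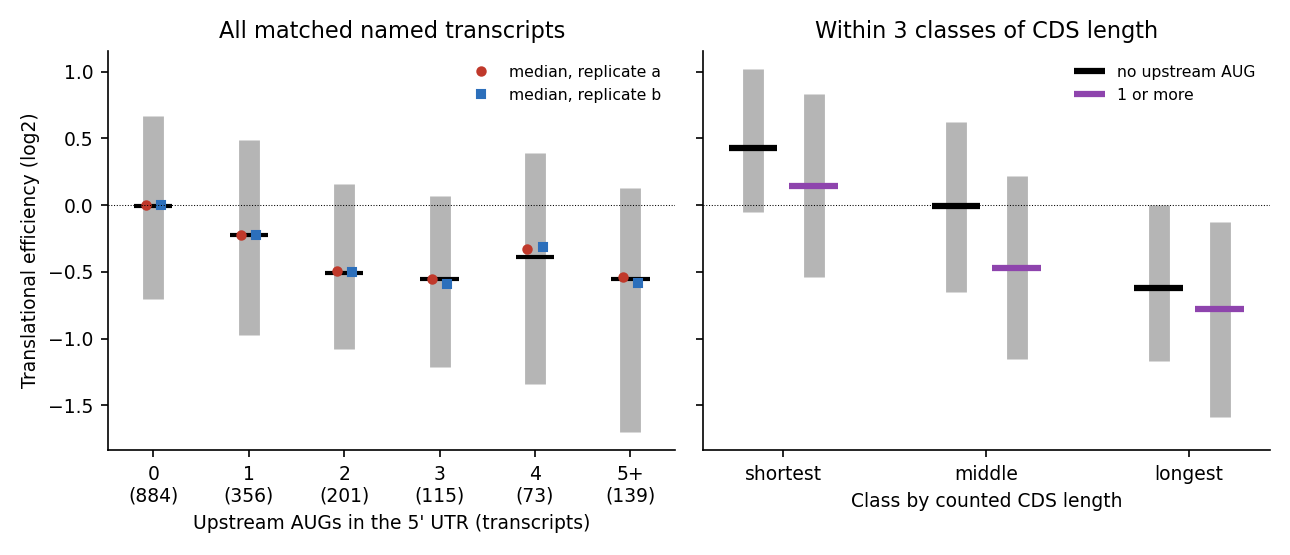
Translational efficiency (log2, y axis) by the number of upstream AUGs in the annotated 5′ UTR (left) and, within 3 classes by counted CDS length, without and with an upstream AUG (right). Horizontal bars are medians, grey bars run from the lower to the upper quartile, and points on the left are medians of replicates a and b; the medians fall from -0.01 with none to -0.51 with 2.

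The stress response mRNAs known for upstream ORFs were the lowest of the gene groups. Of 12 tested, 9 were called low and 1 high (background 18.4% and 18.8%), with a median of -1.70. All 12 had an upstream AUG in the matched annotation, which the choice of the list implies. Several were chosen by the study for their rise in RPFs against these same untreated libraries. Low resting RPFs thus entered the choice, and the count called low is not independent evidence.

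ATF4 had 7 upstream AUGs, of which 2 opened a reading frame that ran into its CDS in another frame. SLC35A4, a transporter of the nucleotide sugar family with 17 upstream AUGs, had 14 and 26 RPFs on 205 and 180 mRNA reads, an efficiency of -3.31 in a and -2.85 in b. PPP1R15A (GADD34) and PPP1R15B (CReP), the regulatory subunits that direct the dephosphorylation of eIF2α, had 46 and 63 RPFs on 212 and 244 mRNA reads and 410 and 581 RPFs on 1989 and 1885 mRNA reads. They stood at -1.64 and -2.02, and at -1.72 and -1.76.

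PTP4A1, a phosphatase, was at -1.92 and -1.85, IFRD1 at -1.18 and -1.65, PNRC2 at -1.42 and -1.88, and C7orf31, on 12 and 16 RPFs, at -2.06 and -2.09. ATF5, a relative of ATF4, had only 12 and 15 RPFs on 44 and 32 mRNA reads and a fitted value of -1.25 ± 0.30 (SE; adjusted p = 0.00053, edgeR). In all 9 both replicates were below -1.

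The other 3 did not share the low level. BCL2L11, a pro-apoptotic BH3-only protein, stood at -0.35 and -0.09, and UCP2, a mitochondrial uncoupling protein, at -0.03 and 0.09. Neither passed the test (adjusted p = 0.39 and 1.0, edgeR). SAT1, with 2 upstream AUGs, was at 2.91 and 2.67 and was called high.

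The lists of transcripts that the study gave as changed in RPFs under Tm differed in their resting values. Of 59 that rose, 53 were joined and 29 tested, with efficiencies from -7.89 to 2.79 and a median of -2.10. Of these, 24 were called low (background 18.4%, or 23.7% of transcripts with a symbol). Of 19 that fell, 15 were tested, with a median of 0.03 and 5 called low. The untreated RPF counts were part of that choice. In the ISRIB libraries, which were not, the 22 rising transcripts with enough counts had a median of -1.87 and 18 lay more than 2-fold low. The 14 falling transcripts with enough counts there had a median of -0.33, and 4 lay more than 2-fold low. The ISRIB median was -0.02 over all transcripts and -0.22 over those with a symbol. The share of all transcripts more than 2-fold low in ISRIB was not counted.

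Transcription factors with C2H2 zinc fingers or BTB domains were low as a group. Of 44 tested, 28 were called low and 1 high, against 18.4% and 18.8% over all transcripts, with a median of -1.28. ZNF621 had 28 and 26 RPFs on 418 and 379 mRNA reads (-3.34 and -3.93), and among the deeply counted members ZNF638 had 1069 and 1499 RPFs on 6409 and 6178 mRNA reads (-2.02 and -2.11). ZNF644 was at -1.89 and -1.88. ZNF362 was the exception, at 1.37 and 1.51, and ZNF326 and ZNF593 had fitted values of 0.95, above 0 but under 2-fold.

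The members were also low for their length. Measured from the median of transcripts in their own class of CDS length, 1 of 5 equal classes, they had a median of -1.06, and 38 of 44 were below that level. Of 42 with a matched 5′ UTR, 25 (59.5%) had an upstream AUG, against 50% of all matched transcripts. Their counts were low: with at least 50 counts in every library, 23 members remained, 10 were called low and the median was -0.78. At that filter 1477 of all 8822 transcripts were called low, and 331 of the 1603 with a symbol.

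Immediate early and short-lived response genes were on the other side. Of 20 tested, 9 were called high and none low by edgeR (background 18.8% and 18.4%), with a median of 0.54; 2 of the 20, PER2 and KLF11, were below 0 at FDR under 0.1 without reaching 2-fold. CYR61, a secreted matricellular protein, had 315 and 398 RPFs on 37 and 39 mRNA reads (3.65 and 3.29). ZFP36L2, which binds AU-rich elements, was at 2.48 and 3.42, BHLHE40 at 2.63 and 2.28, GADD45A at 2.78 and 2.10, and JUN, a subunit of AP-1, at 1.25 and 1.37. MCL1, RGS2 and RHOB had fitted values from 0.06 to 0.09 and did not pass the test. The mRNA level of this list was low, with a median of 26.3 CPM per 1000 codons against 71.5 over all transcripts. With at least 50 counts in every library, 12 members remained, of which 3 were called high. At that filter 1386 of all 8822 transcripts were called high, and 194 of the 1603 with a symbol.

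Histone mRNAs that are made during DNA replication were uniformly above 0. All 12 transcripts passed FDR 0.1 on the high side (background 41.3%) and 6 were called high (background 18.8%), or 4 of 9 when transcripts with the same counts were taken once. HIST2H3C had 18468 and 31617 RPFs on 11440 and 9689 mRNA reads (1.25 and 1.64), and HIST2H2BE was lowest, at 0.13 and 0.56. These messages end in a stem-loop and not in a poly(A) tail, and whether the mRNA-Seq libraries were selected for poly(A) is not given in the sources used here. Its part in the values was not tested. Their CDS is short, and measured from the median of their own length class it was 0.47.

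Cytosolic ribosomal proteins had abundant mRNAs with efficiencies mostly below 0. Of 13 tested, none was called high and 3 were called low by edgeR, close to the background of 18.4%, while 10 were below 0 at FDR under 0.1 and none above (background 41.3% each). Of the 1870 transcripts with a symbol, 927 were below 0 and 655 above. Their median was -0.43 at a median mRNA level of 10700 CPM per 1000 codons. All 13 were below the median of transcripts in their own length class, with a median of -1.03 from it. RPSA, the laminin receptor protein of the small subunit, had 6535 and 10020 RPFs on 35031 and 31851 mRNA reads (-1.86 and -1.73). RPS27 was at -1.36 and -0.95 and RPS27A, made as a fusion to ubiquitin, at -1.12 and -1.13. RPL15 and RPL37A, of the large subunit, were at 0.01 and 0.29, and at 0.00 and 0.16, and did not pass the test. With the replicate as a block RPL15 passed, at 0.15 (adjusted p = 0.09, edgeR).

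Ribosomal protein messages are known to begin with a C and a run of pyrimidines, the 5′ terminal oligopyrimidine tract, through which mTOR controls them. Among 11 of these genes with a start in the RefSeq table of promoters, 8 had a C followed by at least 4 pyrimidines, against 4.07% of the 35116 starts in that table. The first 15 bases are shown for the 3 called low and for RPL37A, near 0, with the opening pyrimidine run in capitals (RefSeq, GRCh38.p14, 5′ to 3′).
RPSA, chr3:39406720-39406734, plus strand: CTTTTCCgtgctacc
RPS27, chr1:153990762-153990776, plus strand: CCTTTCCggcggtga
RPS27A, chr2:55232688-55232702, plus strand: CTTTTCgatccgcca
RPL37A, chr2:216498844-216498858, plus strand: CTTTCTgggctcgga

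A tract was present at both levels. Over all 1507 matched transcripts with a RefSeq start, the 122 with such a start had a median efficiency of -0.23 and the 1385 without -0.20. Many ribosomal protein genes have processed pseudogenes, and 74 named after RPSA, 15 after RPS27, 17 after RPS27A and 2 after RPL37A were annotated. How reads shared with them were counted is not given in the sources used here, and their part in these values was not tested.

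Of 11 translation factors and poly(A)-binding proteins, 1 was called low (background 18.4%): EIF2D, which can deliver initiator tRNA, at -1.49 and -1.60. EIF3I, a subunit of eIF3, was the highest at 0.53 and 0.47. Of 18 mitochondrial ribosomal proteins, 2 were called high, MRPL53 (1.68 and 1.93) and MRPL20 (1.24 and 1.07), and none low by edgeR (background 18.8% and 18.4%). At FDR under 0.1, 4 were below 0 and 8 above (background 41.3% each), down to MRPS9 at -0.40 and -0.42. Their median was -0.01, and that of the cytosolic group was -0.43. Measured from the median of their own length class, the mitochondrial group had a median of -0.34, and 14 of 18 were below that class median. Respiratory chain and ATP synthase subunits had a median of 0.63, with 11 of 14 above 0 at FDR under 0.1 (background 41.3%). Their CDS is short, with a median of 116 counted codons. Measured from the median of their own length class, they had a median of 0.24, and 5 of 14 were below that class median. SDHC, a membrane anchor of complex II, was the only one called high (2.22 and 2.13), and COX20, an assembly factor, was lowest at -0.88 and -1.05.

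Of 11 aminoacyl-tRNA synthetases, 2 were called high and 2 low, 18.2% each. The background was 18.8% and 18.4% over all transcripts and 13.1% and 23.7% over those with a symbol. FARSB, the beta subunit of phenylalanyl-tRNA synthetase, was at 1.26 and 1.31 and IARS2, the mitochondrial isoleucyl enzyme, at -2.21 and -2.28. EPRS, the fused glutamyl and prolyl enzyme, was at -1.36 and -1.54. Of 7 proteasome genes, PSMB2, a core subunit, was called high (1.95 and 1.83) and PSME4, a large activator, was called low (-1.25 and -1.34). Each is 14.3% of the list, against the same background. The remaining 5 had fitted values between 0.21 and 0.47.

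Of 19 tested messages for proteins of endoplasmic reticulum translocation, glycosylation and folding, 6 (31.6%) were called low and 1 (5.26%) high, with a median of -0.49. The background was 18.4% and 18.8% over all transcripts and 23.7% and 13.1% over those with a symbol. The low ones were EDEM1 and EDEM3, which trim mannose from misfolded glycoproteins, at -2.50 and -1.98, DNAJC10, a disulfide reductase, at -2.28, the stress sensor kinase EIF2AK3 (PERK) at -1.97, MIA3, of collagen export, at -1.61 and UGGT1, the folding sensor glucosyltransferase, at -1.27 (fitted values). DPM3, a subunit of dolichol-phosphate mannose synthase, was called high at 2.03 and 1.88. PERK had 79 and 86 RPFs on 416 and 346 mRNA reads.

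Of 15 chaperones, 3 (20%) were called high, against 18.8% of all transcripts and 13.1% of those with a symbol. DNAJC10 was the 1 called low (6.67%), against 18.4% and 23.7%. DNAJB2 was highest, at 2.81 and 2.41 on 27 and 33 mRNA reads, and the chaperonin subunits CCT3, CCT4 and CCT7 had fitted values from -0.04 to 0.25. Of 19 transcripts of core spliceosome subunits, 3 (15.8%) were called high, between the background shares for high calls. The 1 called low (5.26%) was under the shares for low calls. SF3B4 was highest (2.02 and 2.23). SNRNP40 had 2 transcripts tested, the shorter one, of 174 counted codons, at -2.29 and -2.35 and the longer, of 338, at -0.02 and -0.07. Among 9 SR proteins and their kinases, 4 (44.4%) were called low and 1 (11.1%) high. The background was 18.4% and 18.8% over all transcripts and 23.7% and 13.1% over those with a symbol. The low ones were the kinases CLK1 (-1.68 and -1.90) and CLK2 (-1.47 and -1.44), CCNL2 (-2.31 and -2.19) and SRSF11 (a fitted value of -1.03). SRRM1 was called high at 1.13 and 1.03.

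In polyamine and S-adenosylmethionine metabolism, 1 of 7 transcripts (14.3%) was called high and 3 (42.9%) low. The background was 18.8% and 18.4% over all transcripts and 13.1% and 23.7% over those with a symbol. ODC1, which makes putrescine, had 2027 and 3191 RPFs on 7668 and 7209 mRNA reads (-1.36 and -1.24). SRM, spermidine synthase, had 1516 and 2292 RPFs on 1225 and 1035 mRNA reads (0.87 and 1.08). MAT2A, which makes S-adenosylmethionine, was at -0.01 and 0.10 and did not pass the test (adjusted p = 0.60, edgeR). ODC1, at the start of polyamine synthesis, was thus called low, and SAT1, of polyamine breakdown, was called high. These are single members, and SRM, also of polyamine synthesis, was not called (fitted value 0.98). MTR, methionine synthase, was lowest, with fitted values of -1.98 and -1.62 for its 2 transcripts.

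**Figure D4:**
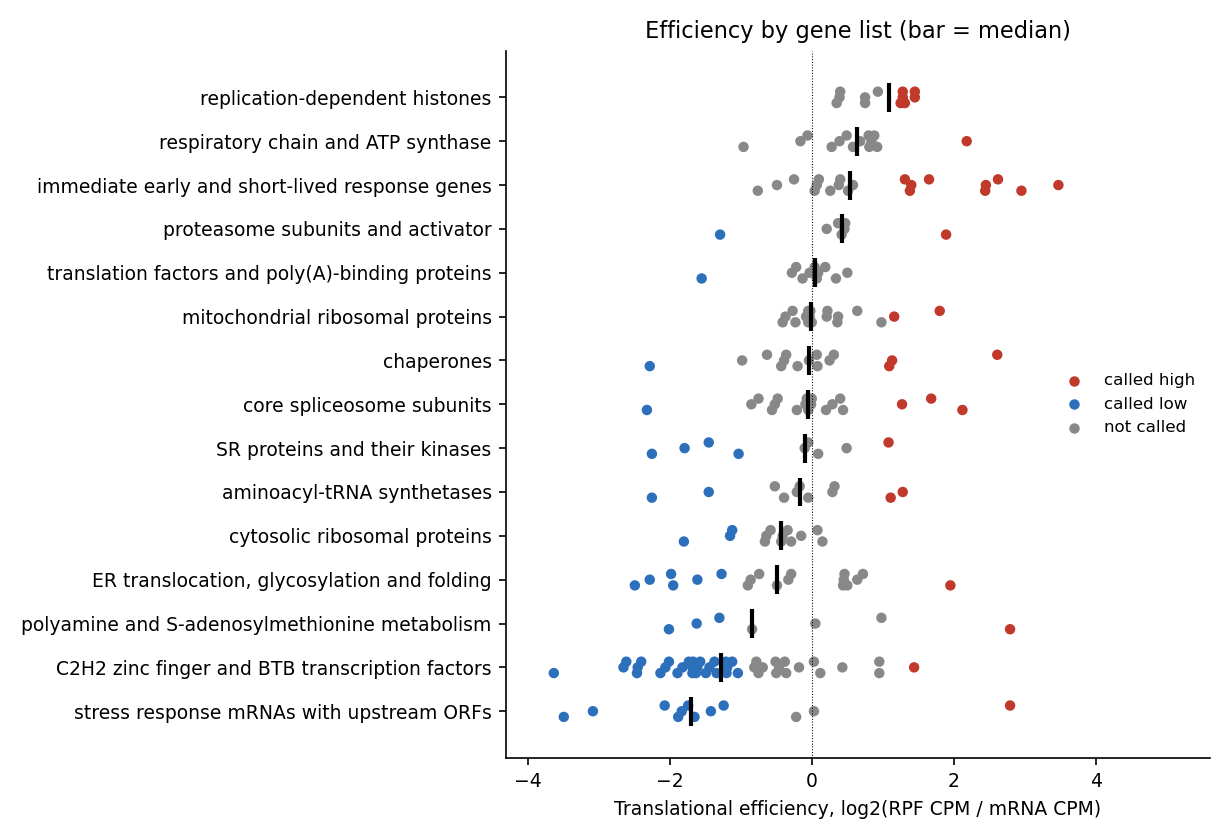
Translational efficiency, log2 of RPF CPM over mRNA CPM, mean of replicates a and b (x axis), of each tested transcript in 15 gene lists (y axis), with the list's median as a vertical bar and calls in colour. Medians run from -1.70 for the stress response mRNAs to 1.09 for the histones, and most lists hold members on both sides of 0.

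Efficiency was lower the longer the coding sequence. Split into 5 classes of 2155 transcripts by counted codons, the median was 0.62 for the shortest (6 to 241 codons), then 0.25, 0.01 and -0.27, and -0.65 for the longest (843 to 8778 codons). The shortest and the longest differed 2.41-fold. The medians of a and b agreed within 0.01 in every length class. The share called high was 35.8% in the shortest class and 7.38% in the longest, and the share called low 6.13% and 37.7%. Spearman's rho over the 10775 transcripts was -0.39, and it was between -0.35 and -0.49 within each of 5 classes by mRNA level. The quartiles overlapped throughout, at -0.03 and 1.33 for the shortest and at -1.38 and 0.01 for the longest.

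By the join, the same number of codons was counted in both assays for each transcript, 20 fewer than annotated with the stop codon. Which codons were left out in each assay was not checked. Efficiency is a ratio of counts over the same number of codons. What part the counting of reads in each assay had in the relation to length was not tested. By the study's methods cycloheximide was added before lysis, and its part in the relation to length was not tested. Of the named extremes, TMSB10 (25 codons) and GNG5 (49) followed the trend at the short end and LRP1B (4580) and PKD1 (4284) at the long end, while ATF4 (332 codons) and RPSA (276) went against it.

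The relation to mRNA level depended on the filter. By 5 equal classes of mRNA CPM per 1000 codons the medians were 0.50, -0.12, -0.23, -0.19 and 0.10 from the lowest level to the highest, with a Spearman rho of -0.11. The mRNA count enters both efficiency and mRNA level. With efficiency from a and mRNA level from b rho was -0.09, and with efficiency from b and mRNA level from a it was -0.11. Within the 5 classes by CDS length rho ran from -0.19 to -0.29. The lowest class held transcripts up to 20.2 CPM per 1000 codons. What part the RPF minimum and the mRNA minimum each had in its median was not tested. When 100 counts were asked of the mRNA libraries and none of the RPF libraries, 8526 transcripts were left, of which 74 had under 10 RPFs. The medians were then -0.32, -0.27, -0.26, -0.16 and 0.16, and rho was 0.15. With 100 mRNA counts and 10 RPFs asked (8452 transcripts) the medians were -0.29, -0.26, -0.26, -0.14 and 0.16 and rho was 0.14. With 10 mRNA counts and no RPF minimum (11474 transcripts) they were 0.08, -0.13, -0.22, -0.20 and 0.08, and rho was 0.02. Each setting has its own classes: the lowest began at 0.383 CPM per 1000 codons with 10 counts in all libraries and at 2.12 with 100 mRNA counts. In all 4 settings the highest class lay above the middle one. With 100 mRNA counts and no RPF minimum, length kept its relation, with medians from 0.49 to -0.80 and a rho of -0.41.

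**Figure D5:**
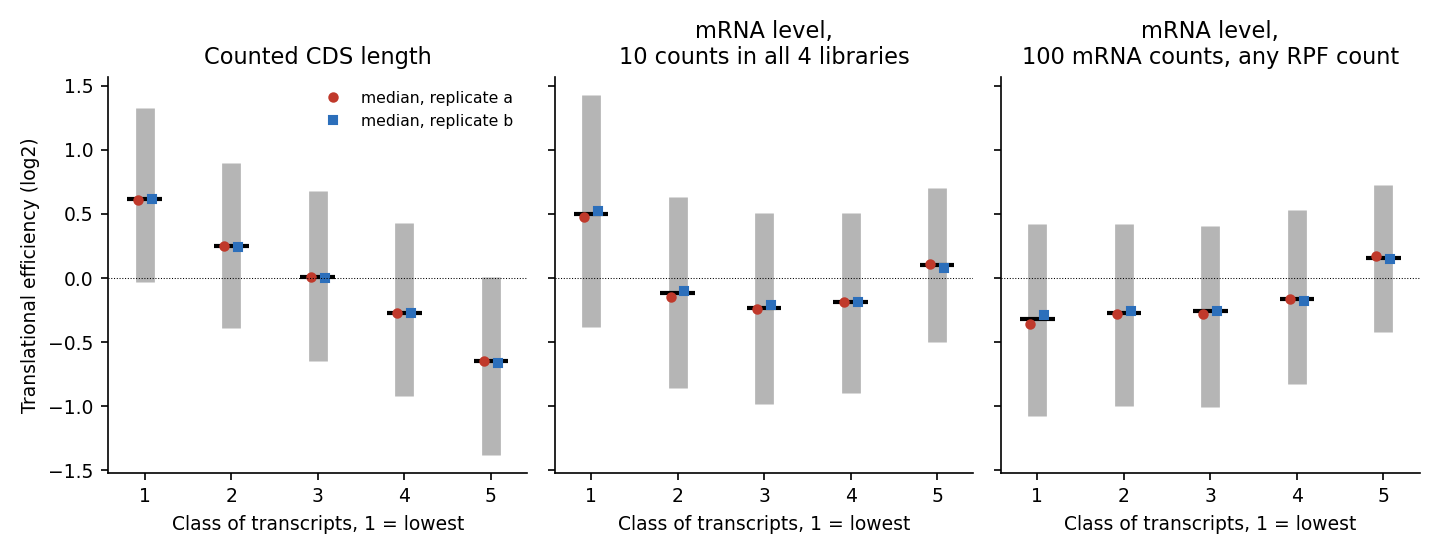
Translational efficiency (log2, y axis) by 5 equal classes of counted CDS length (left) and of mRNA level in CPM per 1000 codons with 10 counts asked of all 4 libraries (middle) or 100 counts asked of mRNA-Seq alone (right). Bars are medians, grey bars the quartiles, and points the medians of replicates a and b; the medians fall from 0.62 to -0.65 with length, and the class of lowest mRNA level, which holds different transcripts in the 2 right panels, has a median of 0.50 in the middle and -0.32 on the right.

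The order of transcripts was much the same in the 12 libraries that the calls did not use. Efficiency at rest had a Pearson r of 0.98 with that in ISRIB-treated cells (n = 10288 transcripts), 0.96 with Tm and ISRIB (n = 10548) and 0.95 with Tm (n = 10029), a description across transcripts. Of the transcripts called high at rest that had enough counts in the treatment (1926 in ISRIB, 2006 in Tm and ISRIB, 1893 in Tm), 85.4% were more than 2-fold high in ISRIB, 79% in Tm and ISRIB and 79.1% in Tm. Of those called low (1819, 1907 and 1743), 91.3%, 85.1% and 82% were more than 2-fold low. The same side of 0 was kept by 1925 of 1926 high and 1819 of 1819 low transcripts with enough counts in ISRIB, and by 1887 of 1893 and 1739 of 1743 in Tm.

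Some transcripts had other values in Tm. ATF4, at -3.49 at rest, had an efficiency of -4.17 in ISRIB, -3.87 in Tm and ISRIB, and -0.96 in Tm. ATF5 was at -1.24 at rest and 1.79 in Tm, and UCP2 at 0.03 and 2.59. ODC1 was at -1.30 at rest, -1.23 in ISRIB and -2.02 in Tm. ATP8B2 and ZZZ3 were low in each, at -3.77 and -3.29 in ISRIB and -4.45 and -3.62 in Tm. These values were each scaled within the 4 libraries of a treatment and are given side by side with no test.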

How the data were processed

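The authors counted reads per transcript over the coding sequence and deposited raw counts, with the codons counted, for each library. Per the submitters' processing notes hg19, CASAVA 1.8, Bowtie 1.0.0 and TopHat2 (2.0.10 and 2.0.7) were used; the role of each and the treatment of shared reads are not given in the sources used here. The mRNA files list several isoforms a gene, so library sizes were summed over the 19044 joined transcripts. Counts were scaled by TMM over the 4 untreated libraries, filtered at 10 counts in each, and tested for the assay term with edgeR 4.0.16 (quasi-likelihood, Benjamini-Hochberg adjustment, FDR under 0.1) in R 4.3.3. By the study's methods each lysate was divided between RNA extraction and RNase I digestion, but the labels do not say that the letters a and b mark a shared lysate. Deviations of same-letter libraries had a correlation of 0.057, and a replicate block was an alternative. The code of the test was also run on simulated counts in which few transcripts were changed, unlike these data, and this bears on none of the calls. An exact permutation test on 2 against 2 libraries could not go below p = 0.33.

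Members and lists were chosen with earlier results of these data known. Named were the 12 highest and 12 lowest called transcripts with a symbol, at least 50 counts and both replicates on one side, the 4 highest and lowest at 10 counts, the stress response list, ODC1, SRM and MAT2A, and the extremes of each other list. Of 1944 joined transcripts with a symbol, 1815 were matched to GENCODE 29. Efficiencies per replicate are log2 CPM ratios, and fitted values carry the SE. Alternatives are given in the closing section.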

Additional observations from a re-analysis of the deposited data

How the results depend on the processing

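The number of transcripts called (4011) moved by less than 1.5 times under library totals, TMM within each assay, DESeq2, at least 50 counts, a replicate block, all 16 libraries and an added filter on mRNA counts alone. Without a count filter 2999 were called low. Leaving out 1 library gave 4009 to 4091 calls; an arm with 1 library was assumed to vary like the other. The replicate block gave 4009 calls. Of the named transcripts, it moved RPL15 and no other across FDR 0.1, and it changed the sign of UCP2. The spread of 1.25 was 1.07 at 50 counts and 1.27 in replicate b alone. The rho with CDS length (-0.39) was -0.38 in replicate b, -0.43 at 50 counts, -0.34 in Tm, -0.31 in Tm and ISRIB, -0.42 in ISRIB, -0.41 with 100 mRNA counts and any RPF count, -0.42 with 100 mRNA and 10 RPF counts and -0.35 with 10 mRNA counts and any RPF count. The rho with mRNA level (-0.11) was -0.04 at 50 counts, -0.18 in Tm, -0.17 in Tm and ISRIB, -0.08 in ISRIB, and turned to 0.15, 0.14 and 0.02 with those 3 filters, chosen after seeing the data. The filter on mRNA counts alone also raised most list medians by about 0.15 through its scaling.

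Of 80 named transcripts, 76 kept their sign and side of FDR 0.1 in all 12 alternatives. UCP2 (0.00) was 0.01 at 50 counts, 0.03 with the replicate block, 0.02 in DESeq2 and -0.19 to 0.24 without single libraries. MAT2A (0.05) was -0.10 to 0.18 without single libraries and passed in 2 alternatives. RPL15 (0.15) passed in 4 alternatives, and HIST2H2BE (0.33) did not pass without mRNA-Seq replicate b (0.17, adjusted p = 0.25, edgeR). The medians of the core spliceosome, chaperone, SR protein, translation factor and HEK293T lists, all within 0.10 of 0, changed sign in 1 or 2 alternatives, as did that of the 3 leukocyte and muscle genes (0.56) in 2. With 50 counts the median was 2.49 for the leukocyte and muscle genes and -0.77 for the zinc finger and BTB factors. With no count filter it was -0.91 for the HEK293T list (-0.05), -1.33 for polyamine metabolism (-0.83) and -1.14 for near-identical families (-0.82), on the fitted scale.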
